A study of Mus musculus with 6 samples.

Results

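Chemokines are small secreted proteins that steer the movement of cells through receptors on the cell surface, and they are classed by the spacing of their conserved cysteines. Of these genes, 9 were examined in cultured mouse CD4 T cells, among 18193 genes measured by the arrays. They were taken by name, with every probe set that the platform annotation assigns to 1 of them alone, which gave 9 probe sets of 45037. Xcl1, Ccl1, Ccl3, Ccl4, Ccl5 and Ccl20 were grouped as chemokines that activated T cells are known to make, and Ccl17, Ccl22 and Cxcl10 as chemokines better known from antigen-presenting cells. The grouping is a textbook one and not exclusive, since macrophages also make Ccl3, Ccl4 and Ccl5, and T cells can make Ccl22. The set was selected on the genotype differences of Xcl1 and Ccl1 in these same arrays, with related genes added by name, so the genotype differences of the 9 genes below are descriptions and support nothing.

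All cells carried OT-II, a transgenic T cell receptor that recognises an ovalbumin peptide. One group was wild type (WT), and the other lacked SAP, the adaptor protein encoded by Sh2d1a that works downstream of SLAM-family receptors. Naive CD4 T cells of spleen and lymph nodes were sorted and grown for 3.5 days with the peptide and with T cell-depleted splenocytes whose division had been blocked by mitomycin C. Both genotypes received IL-21 at 50 ng/ml and IL-6 at 100 ng/ml. Antibodies blocked IL-4 (10 µg/ml), TGF-β (20 µg/ml), IFN-γ and IL-12, conditions meant to give cells like follicular helper T (Tfh) cells. Each genotype had 3 arrays. The labels name neither separate mice nor separate cultures, so errors measure only the spread between these arrays, which may be technical. The labels also do not state how SAP was removed, nor whether the splenocytes came from WT mice.

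The ligands differ in the receptors they act through. XCL1, also called lymphotactin, is made by activated T cells and natural killer (NK) cells and attracts XCR1-bearing dendritic cells, the type specialised in cross-presentation. CCL1 acts through CCR8 and is known from activated T cells, those of the Th2 type in particular. CCL3, CCL4 and CCL5 are inflammatory chemokines, of which CCL3 and CCL5 bind CCR1. CCL20 acts through CCR6 and is made by Th17 cells and epithelia, CCL17 and CCL22 act through CCR4, and CXCL10, an interferon-induced chemokine, acts through CXCR3.

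The promoters of Xcl1, Ccl1 and Cxcl10 are shown because these genes had 3 different patterns over the arrays: a genotype difference, both a genotype and a replicate difference, and a replicate difference alone. Each sequence holds the 250 bases before the transcription start, 5′ to 3′ on the strand of the gene, from RefSeq (GRCm38.p6). Capitals mark matches, on either strand, to the motifs searched: the NFAT core GGAAA, AP-1 TGANTCA, STAT TTCNNNGAA, and the consensus sequences of NF-kB and of the interferon-stimulated response element.
Xcl1, chr1:164935523-164935772, minus strand: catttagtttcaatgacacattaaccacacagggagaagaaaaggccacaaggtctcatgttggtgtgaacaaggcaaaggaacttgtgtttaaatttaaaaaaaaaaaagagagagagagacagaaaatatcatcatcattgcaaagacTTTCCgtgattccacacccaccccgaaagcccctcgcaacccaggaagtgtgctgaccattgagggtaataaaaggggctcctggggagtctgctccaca
Ccl1, chr11:82179813-82180062, minus strand: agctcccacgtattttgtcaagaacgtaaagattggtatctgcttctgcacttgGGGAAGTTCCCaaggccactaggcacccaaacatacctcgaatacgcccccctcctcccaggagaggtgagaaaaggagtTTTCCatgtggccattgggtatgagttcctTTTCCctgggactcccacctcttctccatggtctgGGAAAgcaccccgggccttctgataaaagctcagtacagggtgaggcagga
Cxcl10, chr5:92348890-92349139, minus strand: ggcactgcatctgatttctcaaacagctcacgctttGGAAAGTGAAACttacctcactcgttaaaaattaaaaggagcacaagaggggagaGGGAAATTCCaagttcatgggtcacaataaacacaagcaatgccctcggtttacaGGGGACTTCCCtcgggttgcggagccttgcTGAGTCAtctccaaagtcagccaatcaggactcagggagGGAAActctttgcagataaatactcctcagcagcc

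In these letters Xcl1 held 1 match, to the NFAT core, and Ccl1 held 3 NFAT cores and 2 overlapping NF-kB matches. Cxcl10 held 3 NFAT cores, 3 NF-kB matches of which 2 overlap, 1 AP-1 match and 1 interferon-stimulated response element, and that element and an NF-kB match each overlap an NFAT core. RefSeq promoters were matched for 7 of the 9 genes, and 6 of them held an NFAT core, a motif found in 55.6% of 32851 promoters of this length. The NF-kB consensus stood in 3 of the 7 (Ccl1, Ccl20 and Cxcl10) and in 7.25% of all promoters. Only Cxcl10 of the 7 held the interferon-stimulated response element (1.14% of all) or AP-1 (6.75%), and only Ccl17 held the STAT motif (7.02%). A match describes the letters and not a bound site.

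Levels are RMA values on the log2 scale, on which 1 unit is a factor of 2, and all differences are SAP-deficient minus WT. Array medians ran from 5.73 to 5.76. The targeted gene Sh2d1a was at 9.50, 8.52 and 9.39 in WT replicates 1 to 3 and at 5.47, 4.10 and 4.92 in SAP-deficient replicates 1 to 3, so every array fitted its genotype label. Replicates are numbered in the order of deposition, and the labels give no pairing. Even so, the arrays resembled each other by number: their levels correlated at 0.996 to 0.998 between the 2 genotypes within a number and at 0.989 to 0.994 within a genotype. Differences within a replicate number are therefore given beside the overall ones. T cell markers were bright, with 11 of 11 measured genes above the median probe-set level of 5.75. Cd4 lay between 9.44 and 9.87 over the 6 arrays.

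**Figure D1:**
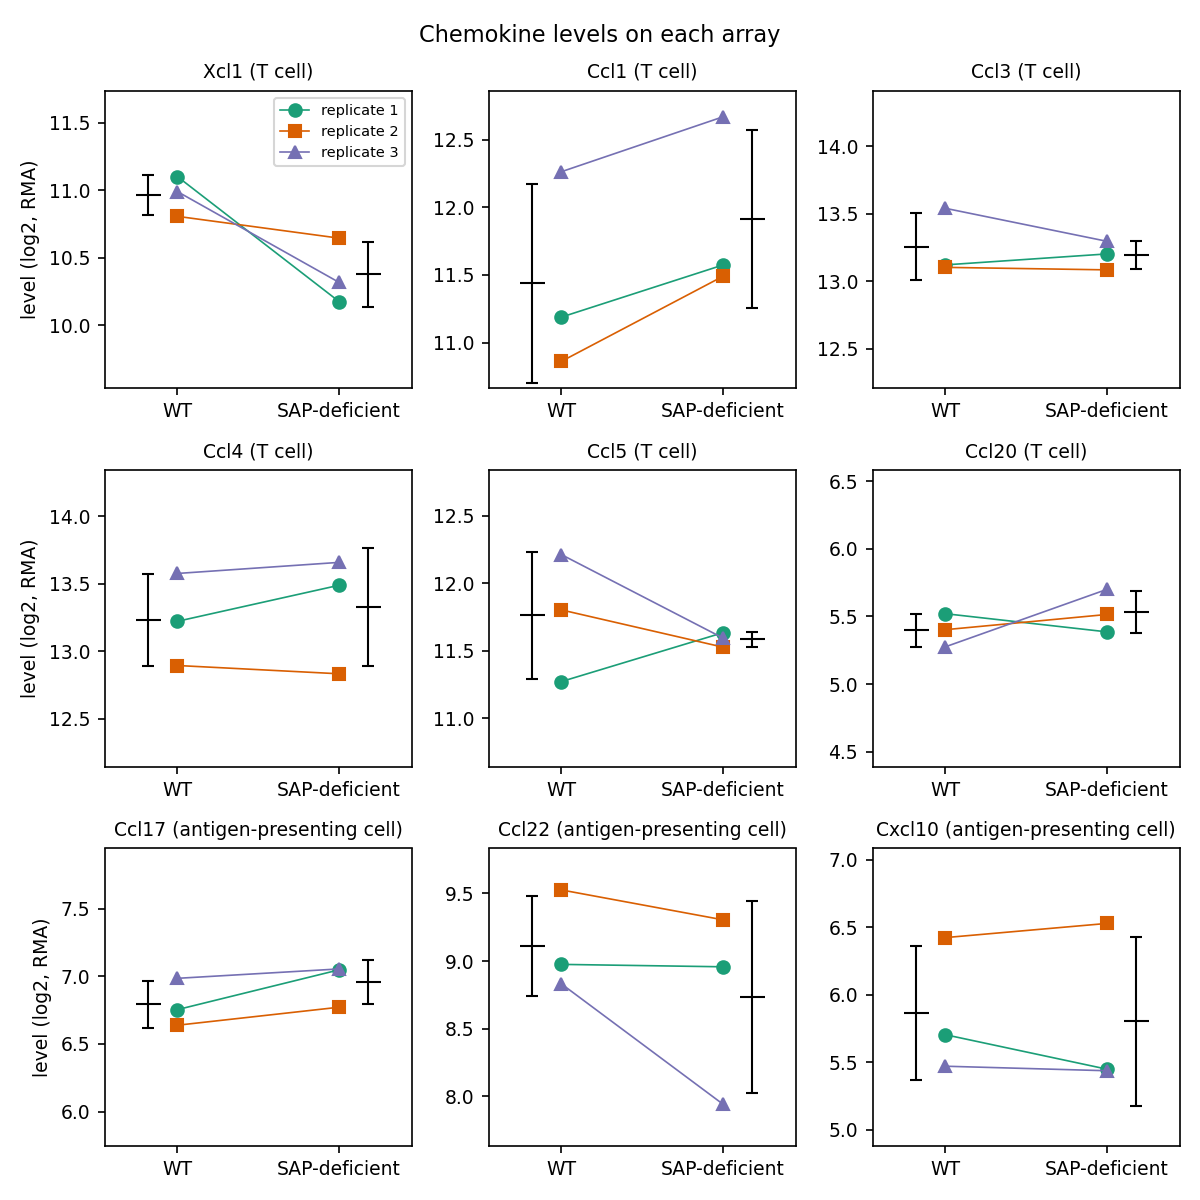
Levels of the 9 chemokine genes (log2, vertical axis, the same span in each panel) in WT and SAP-deficient arrays. Coloured symbols joined by lines are arrays of the same replicate number, and black bars beside them are the mean ± SD of 3 arrays. The SAP-deficient arrays lie below every WT array for Xcl1, while the lines of Ccl1 and Cxcl10 are set apart by replicate number.

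Xcl1 was lower in SAP-deficient cells, and it was the member with the largest difference. Xcl1 (Entrez Gene 16963, chromosome 1) was at 11.10, 10.81 and 10.99 in WT replicates 1 to 3 and at 10.18, 10.65 and 10.32 in SAP-deficient replicates 1 to 3. The groups did not overlap, although only 0.16 separated the highest SAP-deficient from the lowest WT array, both of them replicate 2. The difference was -0.59 ± 0.14 (SE, n = 3 arrays each; 95% interval -0.90 to -0.27), which is 1.50-fold lower. Within replicate numbers it was -0.93, -0.16 and -0.67. Limma's adjusted p over all genes was 1.00, and 0.403 with same-numbered arrays as a block. A larger difference in either direction was found in 0.0660% of all genes. Xcl1 was chosen on this difference, so nothing is read from its rank. In such bulk RNA, fewer cells making a transcript and less of it per cell cannot be told apart.

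Of the 9 genes, 1 did not overlap between the groups, namely Xcl1, against 5.32% of all genes in either direction and 2.94% as lower. Limma called 0 of the 9 genes at an adjusted p under 0.05, against 0.00% of all genes. The targeted gene Sh2d1a, with a difference of -4.31, also missed this threshold (adjusted p = 0.0501 by limma). A missing call in this fit therefore does not show absence of change. At an unadjusted p under 0.05, 1 of the 9 (Xcl1) was counted, against 1.31% of all genes. With same-numbered arrays as a block 0 of the 9 were called, against 0.00550% of all genes, which is Sh2d1a alone (adjusted p = 1.99e-07 by limma). In that fit 3 of the 9, Xcl1, Ccl1 and Ccl22, had an unadjusted p under 0.05, against 6.10% of all genes. Since the choice of genes used this contrast, nothing is read from these counts.

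Ccl1 lay higher in the SAP-deficient array of every replicate number, but the groups overlapped. Ccl1 (Entrez Gene 20290, chromosome 11) was at 11.19, 10.86 and 12.26 in WT replicates 1 to 3 and at 11.57, 11.49 and 12.67 in SAP-deficient replicates 1 to 3. Replicate 3 was the highest array of each genotype and replicate 2 the lowest. The difference was 0.47 ± 0.41 (SE; 95% interval -0.46 to 1.41, adjusted p = 1.00 by limma). Within replicate numbers the differences were 0.39, 0.63 and 0.41, a narrower spread than the 1.40 between the highest and lowest WT array. With same-numbered arrays as a block the interval was 0.35 to 0.60 and limma's adjusted p over all genes was 0.0801. Of the variation of Ccl1 over the 6 arrays, 84.4% lay between replicate numbers and 14.8% between genotypes, whereas for Xcl1 these shares were 1.30% and 76.3%. The median shares over all genes were 66.9% and 6.36%, and over genes at or above the median probe-set level 78.7% and 4.51%. There are more replicate numbers than genotypes, which favours the former share.

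Ccl3 and Ccl4, inflammatory chemokines with no protein-coding gene between them on chromosome 11, differed little between genotypes. Ccl3 was at 13.12, 13.10 and 13.54 in WT and at 13.20, 13.08 and 13.30 in SAP-deficient replicates 1 to 3. Ccl4 was at 13.22, 12.89 and 13.58 in WT and at 13.49, 12.83 and 13.66 in SAP-deficient replicates 1 to 3. For both genes the groups overlapped, with replicate 3 highest and replicate 2 lowest in each genotype. The genotype difference was -0.06 ± 0.12 (SE; 95% interval -0.33 to 0.21) for Ccl3 and 0.10 ± 0.23 (-0.43 to 0.62) for Ccl4. Replicate numbers held 77.8% of the variation of Ccl3 and 93.5% of that of Ccl4, beside a median of 78.7% over genes at or above the median probe-set level. Both probe sets were far brighter than the median probe set (5.75), which does not give the amount of these transcripts relative to other genes.

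Ccl5, made late after T cell activation and by many cytotoxic cells, varied in WT arrays and hardly at all in SAP-deficient ones. It was at 11.27, 11.80 and 12.21 in WT replicates 1 to 3 and at 11.63, 11.53 and 11.59 in SAP-deficient replicates 1 to 3. The WT arrays spanned 0.94 and the SAP-deficient arrays 0.11, and all 3 SAP-deficient values lay within the WT range. The difference was -0.18 ± 0.20 (SE; 95% interval -0.64 to 0.29), with 0.36, -0.28 and -0.62 within replicate numbers. Whether the spreads differ between genotypes was not tested, because 3 arrays a group give little basis for it. Ccl20, the CCR6 ligand, was the 1 gene of the 9 below the median probe-set level, at 5.52, 5.40 and 5.28 in WT and at 5.39, 5.52 and 5.70 in SAP-deficient replicates 1 to 3. Its groups overlapped, and the difference was 0.13 ± 0.13 (-0.16 to 0.43).

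Over the 6 T cell chemokines the median difference was 0.018, with 3 genes higher and 3 lower, beside a median of 0.0078 over all genes. The median lay between -0.10 and 0.08 when single arrays were left out. It was -0.06 when probe sets under the median level, Ccl20 among them, were removed. Xcl1 and Ccl1 thus lay on opposite sides of a group without a common direction.

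**Figure D2:**
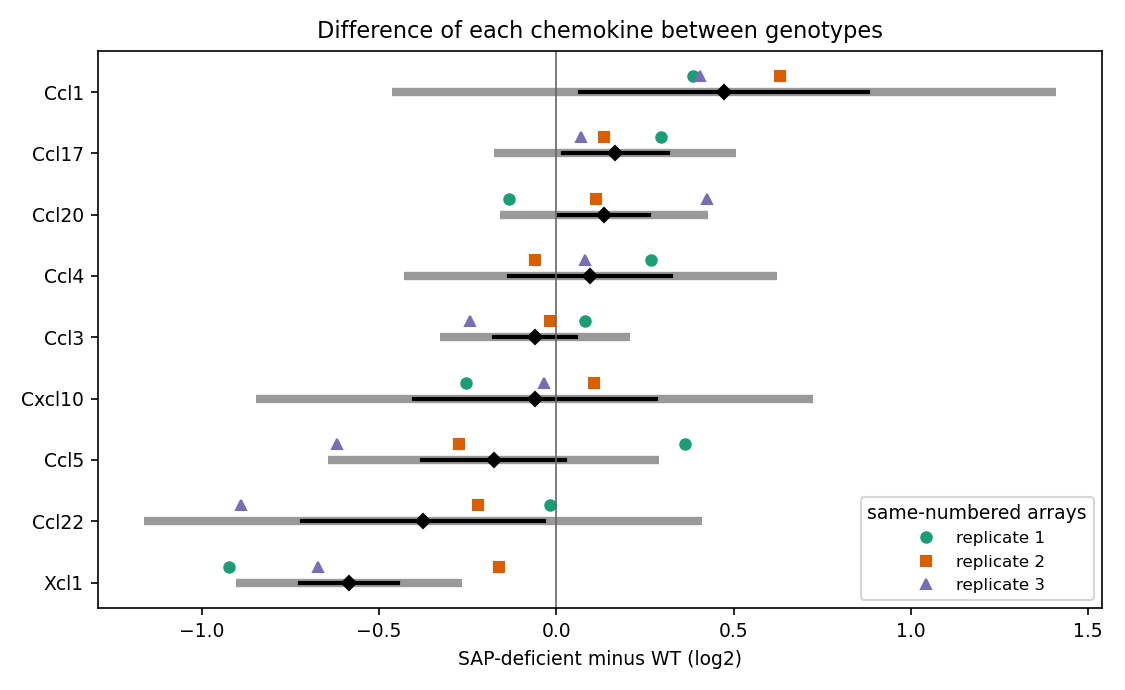
Difference between genotypes for each chemokine (horizontal axis, SAP-deficient minus WT, log2). Diamonds are the differences over 3 arrays a group, black lines their SE, grey bars their 95% intervals, and coloured symbols above them the differences within each replicate number. Only the grey bar of Xcl1 leaves out 0, while for Ccl1 the 3 coloured symbols lie between 0.39 and 0.63 inside a wide grey bar.

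Of the chemokines of antigen-presenting cells, Ccl22 was low in a single SAP-deficient array. It was at 8.97, 9.53 and 8.83 in WT replicates 1 to 3 and at 8.96, 9.30 and 7.94 in SAP-deficient replicates 1 to 3. SAP-deficient replicate 3 lay below all other arrays, which overlapped. The difference was -0.38 ± 0.34 (SE; 95% interval -1.16 to 0.41), and within replicate numbers it was -0.02, -0.22 and -0.89. Without SAP-deficient replicate 3 it was 0.02. Markers of splenocytes are given beside it. The 9 measured MHC class II genes differed on average by -0.05, -0.06 and -0.47 within replicate numbers 1 to 3. Their mean level was lowest in SAP-deficient replicate 3 (7.05), while WT replicate 3 had the highest WT mean (7.52). Within number 3 the class II chain genes H2-Aa, H2-Eb1 and H2-Ab1 differed by -0.70, -0.78 and -0.12. H2-Oa, H2-Ob, Ciita, Cd74 and H2-DMa differed by -0.78, -0.80, -0.52, -0.40 and -0.23. Only H2-DMb2, for a chain of a peptide-loading factor, was higher there, by 0.12. The 12 measured B cell markers differed by -0.16, -0.05 and -0.37 within numbers 1 to 3. The 17 dendritic cell and macrophage markers differed by 0.04, -0.07 and -0.10, and their mean was lowest in SAP-deficient replicate 2 (6.17), not in replicate 3 (6.26). Cd83 had the widest range of these markers (1.59) and, like Ccl22, was highest in replicate 2 of each genotype. Lyz2, the next widest (1.23), was lowest there. Of the 17, 2 were highest and 9 lowest in replicate 2 of both genotypes. The part of these cells in the level of Ccl22 was not tested.

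Ccl17, which shares the receptor CCR4 with Ccl22 and is separated from it on chromosome 8 by 1 protein-coding gene, Cx3cl1, did not follow it. Ccl17 was at 6.75, 6.64 and 6.99 in WT and at 7.05, 6.77 and 7.06 in SAP-deficient replicates 1 to 3. The groups overlapped, and SAP-deficient replicate 3, the lowest array for Ccl22, was the highest for Ccl17. The difference was 0.17 ± 0.15 (SE; 95% interval -0.18 to 0.51), and the SAP-deficient array was higher within each replicate number, by 0.29, 0.13 and 0.07. The chemokine gene Cx3cl1 between them lay between 6.05 and 6.31 in all arrays.

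Cxcl10 differed by replicate number and not detectably by genotype. It was at 5.70, 6.42 and 5.47 in WT and at 5.45, 6.53 and 5.44 in SAP-deficient replicates 1 to 3. Replicate 2 of each genotype stood above the other 4 arrays, which lay near the median probe-set level. The difference was -0.06 ± 0.34 (SE; 95% interval -0.85 to 0.73). Of the variation of Cxcl10, 97.0% lay between replicate numbers, beside a median of 78.7% over genes at or above the median probe-set level. The other interferon-induced ligands of CXCR3 were dim: Cxcl9 lay between 3.43 and 3.94 and Cxcl11 between 4.20 and 4.69. Their highest arrays were both WT replicate 3. Of the SAP-deficient arrays, Cxcl9 was highest in replicate 2 and Cxcl11 in replicate 1. RMA compresses differences at such levels, so these genes cannot show whether the pattern of Cxcl10 was shared. Over the 3 chemokines of antigen-presenting cells the median difference was -0.06, with 1 higher and 2 lower. It ranged from -0.42 without SAP-deficient replicate 2 to 0.12 without SAP-deficient replicate 3.

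The order of the arrays followed the replicate number for 6 of the 9 chemokines. Ccl1, Ccl3, Ccl4, Ccl17, Ccl22 and Cxcl10 each had their highest array at the same number in both genotypes, and the same 6 genes had their lowest array at the same number. Over all genes this was so for 57.3% (highest) and 57.0% (lowest), so the share among the chemokines was near that background. The number differed between the genes. Replicate 3 was highest for Ccl1, Ccl3, Ccl4 and Ccl17, and replicate 2 for Ccl22 and Cxcl10. For Xcl1, Ccl5 and Ccl20 the genotypes did not share the order. The genotype difference had the same sign within all 3 replicate numbers for 4 of the 9 genes (Xcl1, Ccl1, Ccl17 and Ccl22), against 28.8% of all genes. Xcl1 and Ccl1 were chosen on this difference, so nothing is read from that count. A gap of at least 1 log2 unit between 2 arrays was found for Ccl1 (1.81), Ccl22 (1.59) and Cxcl10 (1.09), against 5.72% of all genes.

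**Figure D3:**
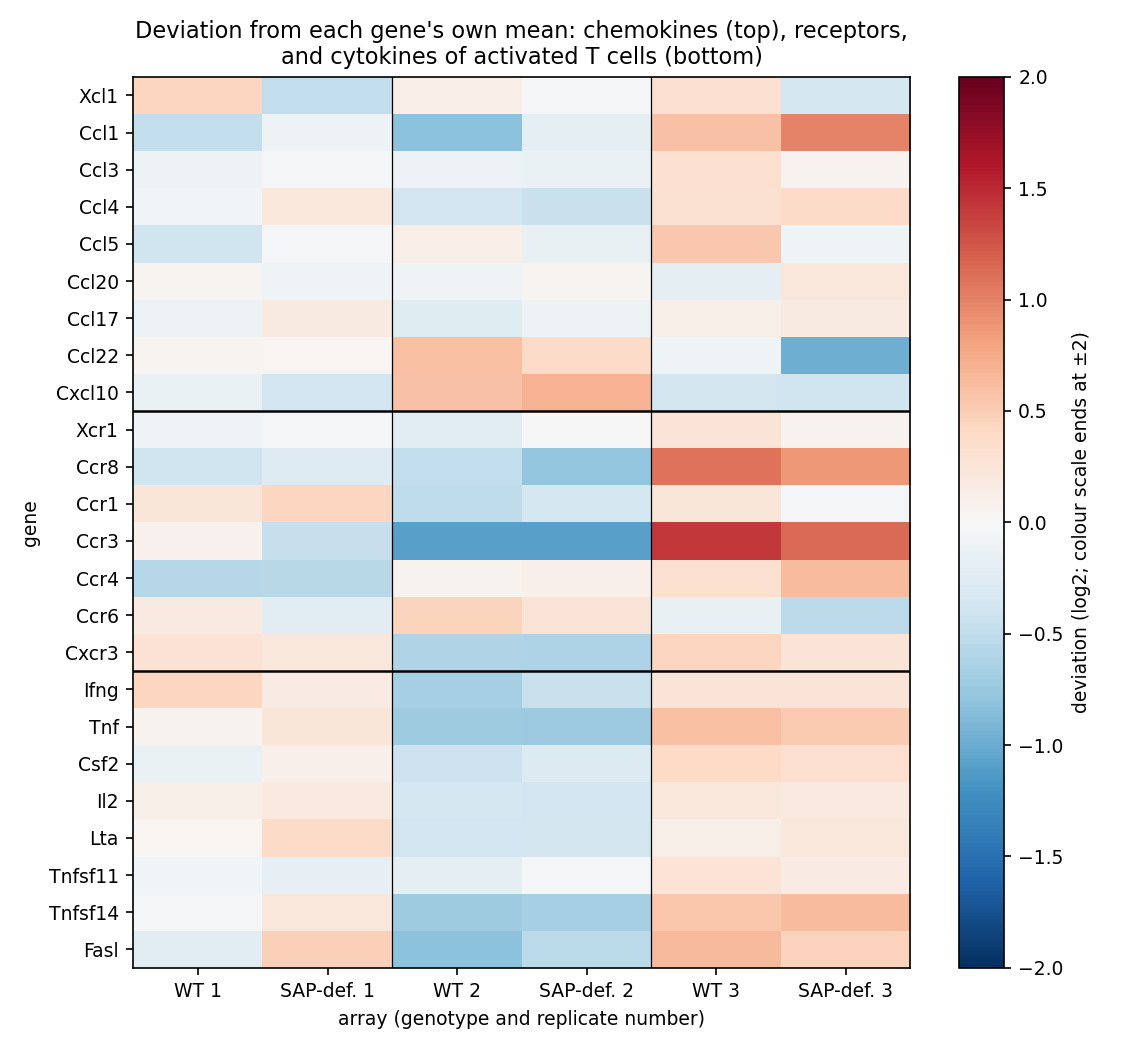
Deviation of each gene (row) from its own mean over the 6 arrays (column), in log2 units by colour, with the arrays ordered by replicate number. Rows are the 9 chemokines, receptors that bind them, and cytokines of activated T cells. Xcl1 alternates with genotype, Ccl1 and its receptor gene Ccr8 are highest in both arrays of replicate number 3, and most of the cytokines are lowest in both arrays of number 2.

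Receptors of these ligands were measured in the same cells. The receptor list held 9 measured genes: Xcr1, Ccr8, Ccr1, Ccr3, Ccr4, Ccr6, Cxcr3, Ackr1 and Ackr2. Of these 9, none was called by limma or had an unadjusted p under 0.05, and 3 were higher and 6 lower, with a median of -0.10. For 1 of the 9, Ackr1, the groups did not overlap, as lower, against 2.94% of all genes. With same-numbered arrays as a block 1 of the 9 had an unadjusted p under 0.05, against 6.10% of all genes. This was Ccr6, the receptor gene for CCL20, which differed by -0.39, -0.19 and -0.38 within replicate numbers 1 to 3 (adjusted p = 0.722 by limma with the block). The median of the receptors was 0.14 without WT replicate 3 and 0.10 without SAP-deficient replicate 2. Ccr8, the receptor gene for CCL1, was at 5.04, 4.95 and 6.52 in WT and at 5.18, 4.65 and 6.30 in SAP-deficient replicates 1 to 3, so replicate 3 was highest in each genotype, as for Ccl1. Its genotype difference was -0.13 ± 0.51 (SE).

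Ccr4, the receptor gene for CCL17 and CCL22, was at 6.11, 6.76 and 7.01 in WT and at 6.13, 6.80 and 7.33 in SAP-deficient replicates 1 to 3, again highest in replicate 3. Cxcr3, the receptor gene for CXCL10, was at 11.46, 10.56 and 11.60 in WT and at 11.40, 10.55 and 11.42 in SAP-deficient replicates 1 to 3. It was lowest in the replicate where Cxcl10 was highest. Ccr3, which encodes an eosinophil receptor that also binds CCL5, had the widest range of the list, from 3.96 to 6.45, with replicate 3 highest in each genotype. Xcr1, the receptor gene for XCL1 and a marker of cross-presenting dendritic cells, stayed between 3.64 and 4.10, below the median probe-set level on every array.

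The other chemokine ligands gave no call. Of 29 listed genes 26 were measured (Ccl19, Ccl21a and Ccl26 are not analysed here), and 18 of them were lower, with a median difference of -0.08. At an unadjusted p under 0.05 (limma), 1 was higher and 1 lower, against 0.566% and 0.748% of all genes. These were Cxcl15, a chemokine of lung epithelium (0.31 ± 0.11, SE), and the monocyte chemoattractant gene Ccl12 (-0.22 ± 0.09), each with an adjusted p of 1.00. Both were dim, with arrays between 4.38 and 4.85 for Cxcl15 and between 2.78 and 3.16 for Ccl12.

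The widest range among these ligands belonged to Cxcl2, a neutrophil chemoattractant, which varied with replicate number. It was at 8.98, 8.46 and 10.82 in WT and at 8.81, 8.58 and 10.95 in SAP-deficient replicates 1 to 3, with a genotype difference of 0.02 ± 0.74 (SE). Its relative Cxcl5 ranged from 3.27 to 5.53, the platelet chemokine gene Ppbp from 3.46 to 4.64 and the myeloid chemokine gene Ccl6 from 5.94 to 7.03. The first of these 3 was highest in replicate 3 of each genotype and Ccl6 in replicate 1, while Ppbp had its highest arrays at different numbers.

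**Figure D4:**
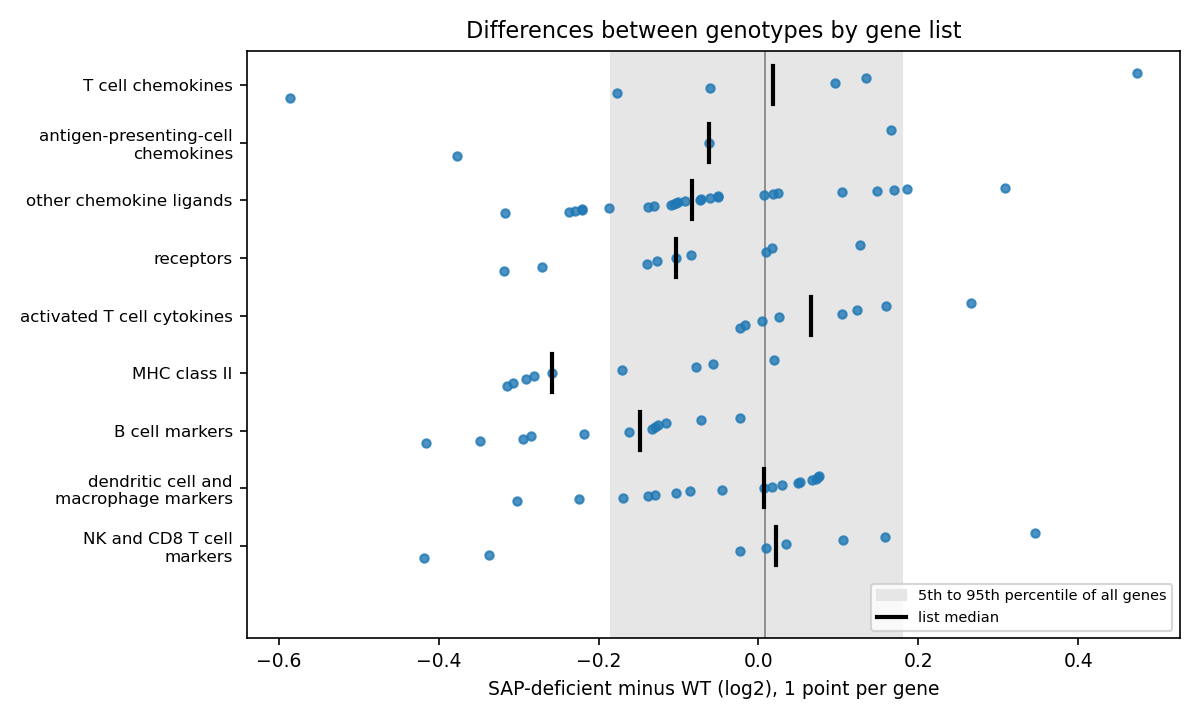
Difference between genotypes (horizontal axis, SAP-deficient minus WT, log2), 1 point per measured gene, by gene list. The black tick is the median of each list, the grey line the median of all genes (0.0078) and the grey band the range from the 5th to the 95th percentile of all genes (-0.18 to 0.18). Xcl1 and Ccl1 are the outermost points of the T cell chemokines, at -0.59 and 0.47, and every B cell marker lies below 0.

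Cytokines that activated T cells release together with XCL1 and CCL3 to CCL5 were not lower on balance. Of these 8 genes, 6 were higher and 2 lower, the median difference was 0.07, and none was called. With same-numbered arrays as a block 2 of the 8 had an unadjusted p under 0.05 by limma, against 6.10% of all genes. These were the lymphotoxin gene Lta, higher by 0.35, 0.02 and 0.11 within replicate numbers 1 to 3, and Tnfsf14, higher by 0.24, 0.05 and 0.08. The interferon gamma gene Ifng was at 12.90, 11.82 and 12.73 in WT and at 12.64, 12.03 and 12.73 in SAP-deficient replicates 1 to 3, a difference of -0.02 ± 0.29 (SE). Tnf was at 11.73, 10.96 and 12.27 in WT and at 11.91, 10.94 and 12.19 in SAP-deficient replicates 1 to 3. The lowest array was replicate 2 in each genotype for 7 of the 8 genes, against 22.8% of all genes, and 3 of the 6 T cell chemokines, Ccl1, Ccl3 and Ccl4, had the same lowest arrays. This was not particular to them. It also held for 6 of 11 T cell markers and 9 of 17 dendritic cell and macrophage markers, but for 1 of 12 B cell markers. The death ligand gene Fasl and the TNF-family gene Tnfsf14 had the widest ranges, 1.46 and 1.35.

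By the pattern over the 6 arrays, the genes most like Xcl1 were Itsn1, Plbd1, Rogdi, Six2 and Pfkfb2. Likeness was measured as the root mean square difference between the deviations of 2 genes from their own means, over 10928 other genes above the median level. It was 0.13 log2 units for Itsn1, an endocytic scaffold gene, and 0.19 to 0.21 for the rest, among them Six2, a developmental transcription factor gene, and Pfkfb2, a regulator of glycolysis, against 0.34 for a gene without any variation. Itsn1 was at 7.69, 7.57 and 7.56 in WT and at 7.03, 7.23 and 7.20 in SAP-deficient replicates 1 to 3. Since Xcl1 varied mainly with genotype, this order is bound to the contrast by which Xcl1 was chosen.

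The genes most like Ccl1 were Id1, Il24, Nts, Il13 and Cdk5r1, at 0.12 to 0.19 log2 units, against 0.62 for a gene without variation. Il24 encodes a cytokine, Nts the neuropeptide neurotensin and Cdk5r1 an activator of the kinase CDK5. Id1, a transcriptional inhibitor, was at 6.16, 5.98 and 7.14 in WT and at 6.54, 6.22 and 7.66 in SAP-deficient replicates 1 to 3. Il13, a Th2 cytokine gene, was at 8.25, 7.66 and 9.05 in WT and at 8.58, 8.16 and 9.88 in SAP-deficient replicates 1 to 3. Each of the 5 was higher in the SAP-deficient array of every replicate number, and highest in replicate 3 of each genotype. Both features belong to the pattern of Ccl1 by which they were picked, and Ccl1 was itself chosen on this contrast, so they support nothing.

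Xcl1 is also a gene of NK and CD8 T cells, so their markers were set beside it. Of 8 measured markers 5 were higher and 3 lower, with a median of 0.02, and none was called. With same-numbered arrays as a block, 3 of the 8 had an unadjusted p under 0.05 by limma, against 6.10% of all genes. Of these Eomes was higher, and Klrk1 and Prf1 were lower. Their mean level ran from 6.44 to 6.72 in WT and from 6.41 to 6.64 in SAP-deficient arrays. Ncr1, which defines NK cells, was between 4.48 and 4.69, below the median probe-set level, and Cd8a between 5.59 and 5.94, whereas Cd8b1 was between 8.17 and 9.10. The activating receptor gene Klrk1 was lower by -0.55, -0.16 and -0.55 within replicate numbers 1 to 3 and the perforin gene Prf1 by -0.51, -0.13 and -0.37, beside -0.93, -0.16 and -0.67 for Xcl1. Eomes, a transcription factor of cytotoxic cells, differed by 0.45, 0.18 and 0.41, and the marker Klrd1 by -0.22, 0.62 and 0.07. The part of such cells in the level of Xcl1 was not tested.

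For the other cells of the culture, MHC class II genes had a mean level of 7.25 to 7.52 in WT and of 7.05 to 7.43 in SAP-deficient arrays, with 1 of 9 higher and a median difference of -0.26. B cell markers had a mean of 6.07 to 6.35 in WT and of 5.84 to 6.20 in SAP-deficient arrays, with 0 of 12 higher and a median of -0.15. Dendritic cell and macrophage markers had a mean of 6.24 to 6.36 in WT and of 6.17 to 6.40 in SAP-deficient arrays, with 9 of 17 higher and a median of 0.0073. Among neutrophil and mast cell markers 2 of 7 were higher, with a median of -0.16, and all 7 lay below the median probe-set level. T cell markers had 7 of 11 higher and a median of 0.02. No gene of these 5 lists had an unadjusted p under 0.05 by limma, and none was called. With same-numbered arrays as a block, 2 of 12 B cell markers, 2 of 9 MHC class II genes and 2 of 7 neutrophil and mast cell markers had one, all lower, against 2.61% of all genes. Of the T cell markers 1 was then higher (Cd3d) and 1 lower (Cd28), and of the dendritic cell and macrophage markers none.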

How the data were processed

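The authors deposited log2 values for 45101 probe sets on 6 Affymetrix arrays, made with Expression Console and RMA, per the submitters' processing notes. For versions and genome build the sources used here give nothing. RMA equalises array distributions and compresses differences of dim probe sets. The number of arrays limits the precision. Per the labels, 500 ng of RNA was labelled per array.

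Here 64 control probe sets were left out. Of the other 45037, 34945 have 1 gene in the platform annotation, 932 several and 9160 none. RefSeq updated the symbols of 34741. The brightest single-gene probe set stood for each gene. Limma (version 3.58.1, R version 4.3.3; lmFit on genotype, eBayes with trend) was fitted over all probe sets, with Benjamini-Hochberg adjustment over genes, a threshold of 0.05 and 95% intervals. As a check, the fit was run on simulated gene-level values. The condition to pass was on the mean bias of known changes only, so it does not vouch for the calls.

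The members, the gene lists and the alternatives were chosen with earlier results of these data known. Besides the 9 members, the rule for named genes takes Sh2d1a, the 5 genes most like Xcl1 and Ccl1, and listed genes with an unadjusted p under 0.05 or the widest ranges. Other listed genes were named for their role, after their values were seen. Same-numbered arrays were used as a block because, matched on odd-numbered probe sets, their deviations from genotype means correlated at 0.54, 0.73 and 0.60 on even-numbered ones. This pairing comes from the data and not from the labels. Alternatives were variance models, a filter on dim probe sets, other normalizations, averaging a gene's probe sets, the block, and leaving out each array.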

Additional observations from a re-analysis of the deposited data

How the results depend on the processing

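In all 13 alternatives 0 of the 9 chemokine genes passed the threshold. Xcl1 stayed lower, from -0.72 to -0.48 when single arrays were left out and from -0.60 to -0.58 otherwise. Its groups did not overlap, so leaving out an array could not turn its sign. Xcl1 and Ccl1 were chosen on this contrast, so a kept sign supports nothing for either. Ccl1 stayed higher, from 0.09 without SAP-deficient replicate 3 to 0.89 without WT replicate 3, and Ccl17 (0.09 to 0.26) and Ccl20 (0.05 to 0.21) also stayed higher in each run that held them. The remaining 5 changed sign when some single array was left out: Ccl3 (-0.14 to 0.08), Ccl4 (-0.07 to 0.34), Ccl5 (-0.42 to 0.05), Ccl22 (-0.66 to 0.02) and Cxcl10 (-0.42 to 0.22). The number of members whose groups did not overlap ran from 1 to 3 with an array left out, at 2 without WT replicate 1 and at 3 without WT replicate 3 or SAP-deficient replicate 2, where fewer arrays must be ordered. The median of the receptors ran from -0.18 to 0.14, that of the other ligands from -0.14 to -0.0046. Leaving out 1 array unbalances the replicate numbers, so differences between them enter these values. The block gives no count of groups that do not overlap. No setting that kept all 6 arrays changed the sign of a member. Precision is limited by the 3 arrays a group.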
